A study of Mus musculus with 12 samples.

Results

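The genes described here are 10 transcription factor genes of the AP-1 and immediate-early class, namely Fos, Fosb, Fosl1, Fosl2, Jun, Junb, Jund, Atf3, Egr1 and Maff. They were picked by gene symbol from the 52550 genes of the deposited expression table, with earlier results of these data known. Each symbol matched 1 gene, and all 10 genes passed the filter on low counts that left 16823 genes for testing. RNA was sequenced from D2A1 and D2.OR, a pair of mouse mammary cancer cell lines that the study used as a model of proliferating and dormant tumor cells. Each line was grown in 2D, on plastic, or in 3D, on top of a layer of growth-factor-reduced Matrigel (a basement membrane extract), giving 4 groups of 3 replicates, or 12 libraries. The replicate number is also the batch number, and each batch was run in its own sequencing lane.

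No group carried a drug, a knockout or a transgene as far as the labels state. The 3D medium was a low-serum medium with hydrocortisone, cholera toxin, insulin and dissolved Matrigel. It was not settled from the sources used here whether the 2D cells for RNA had the same medium or the usual culture medium with more serum. Cells in 3D were freed from the gel on ice in a recovery solution before RNA extraction, so handling and culture cannot be told apart. Each line stands for itself alone, since no second dormant or proliferating line was sequenced. The study's reporting summary speaks of biological repeats for its findings in general, but neither it nor the labels says whether the replicates of these libraries were separate cultures. The p-values below thus measure the spread between these libraries, which may be partly technical.

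AP-1 is a dimer of proteins with a basic region and a leucine zipper, in which a Jun protein pairs with another Jun protein or with a Fos, ATF or Maf protein. Fos, Fosb, Jun, Junb, Egr1 and Atf3 are textbook immediate-early genes, whose transcripts appear within minutes of a growth factor, serum or stress signal and are lost quickly again. Fosl1 and Fosl2, which code for FRA1 and FRA2, respond more slowly and last longer, and FRA1 is well known from invasive mammary tumor cells.

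Library totals ran from 47589611 to 73325069 expected counts, with a median of 61747126. On a principal component analysis the first component (70.3% of the variance) separated the cell lines. Batch 1 had the highest value on the second component (10.2%) in each of the 4 groups. In D2A1 in 3D the values by replicate were 34.6, -58 and -65.6. The first of these lay among those of D2A1 in 2D (58.5, 15.8 and 26.3). Of 3 leukocyte markers, Ptprc was at most 0.05 TPM and Adgre1 at most 0.03 TPM, where TPM is RSEM's transcript abundance, a level scaled for gene length and library size. The third, the macrophage-associated Cd68, was present throughout, at 6.84 to 32.1 TPM in D2A1 in 2D, 5.65 to 10 in D2A1 in 3D, 2.22 to 5.46 in D2.OR in 2D and 3.54 to 6.75 in D2.OR in 3D. Endothelial markers summed to at most 0.42 TPM. The 3 basal epithelial markers summed to 2.13 to 2.5 TPM in D2A1 and 3.43 to 5.85 TPM in D2.OR in 2D. In 3D the sums were 0.45 to 2.06 and 5.03 to 11.1 TPM. Krt5 was at most 0.03 TPM in any group, and Krt14 at most 0.11 TPM in D2A1 and 0.57 to 6.02 TPM in D2.OR. Trp63 was at 2.06 to 2.5 and 2.21 to 5.28 TPM in 2D, and at 0.4 to 2.06 and 4.1 to 5.03 TPM in 3D. The part of the basal markers in the results below was not tested. The summed level of 4 fibroblast markers moved with the cell line and, in D2A1, with the culture. It stood at 57 to 75.5 TPM in D2A1 and 179 to 335 TPM in D2.OR in 2D. In 3D it stood at 28.4 to 43.7 and 117 to 318 TPM. Pdgfra, Pdgfrb and Col1a1 were each higher in every D2.OR library than in any D2A1 library of the same culture, with the collagen gene Col1a1 at 0.26 to 3.33 TPM in D2A1 and 7.65 to 57.2 TPM in D2.OR over both cultures. The other one, Dcn, was at 0.15 to 0.94 and 1.14 to 4.61 TPM in 2D but overlapped in 3D (0.51 to 6.89 in D2A1 and 0.48 to 2.53 in D2.OR). The part of these markers in the line and culture differences below was not tested. The summed level of 5 luminal markers moved with the line and, in D2.OR, with the culture, at 205 to 297 TPM in D2A1 in 2D, 94 to 221 in D2A1 in 3D, 1164 to 1714 in D2.OR in 2D and 416 to 875 in D2.OR in 3D. In D2.OR, Krt8 stood at 700 to 1022 TPM in 2D and 227 to 527 in 3D, Krt18 at 440 to 666 and 125 to 333, Cdh1 at 22.2 to 183 and 8.93 to 61.3, and Epcam at 1.54 to 5.42 over both. Krt19 was nearly absent from both lines (at most 0.14 TPM). In D2A1, Krt18 was present at 92.7 to 294 TPM, whereas Krt8 was at 0.78 to 2.31 TPM and the epithelial genes Epcam and Cdh1 were at most 0.17 and 0.28 TPM. The part of the luminal markers in the results below was not tested. The fat cell marker Plin1 reached 6.33 to 75 TPM in D2.OR in 3D and at most 1.36 TPM in the other groups. The other fat cell marker, Adipoq, was at 0.16 to 2.03 TPM in D2.OR in 3D and at most 0.25 TPM in the other groups. The part of the fat cell markers in the results below was not tested.

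Levels of the 10 genes spanned a wide range. By mean TPM over the 12 libraries the order was Junb (397), Jund (241), Egr1 (200), Fosl2 (107), Fosl1 (84.9), Jun (55), Fos (45.5), Maff (32.6), Atf3 (16.7) and Fosb (5.63). The ranges of neighbors in that order overlapped in every case, from Junb (195 to 761 TPM) against Jund (136 to 396 TPM) down to Atf3 (6.01 to 37.3 TPM) against Fosb (1.34 to 22.7 TPM). The order changed with the group, though Junb came first and Fosb last by mean TPM in each of the 4. Egr1 came before Jund in D2.OR in 2D (389 ± 158 against 314 ± 79.6 TPM, SD, n = 3), with overlap, and after Fosl1 and Fosl2 in D2A1 in 3D (50.4 ± 66.1 against 107 ± 41.5 and 80.2 ± 3.85 TPM). Fos came after Maff in both D2A1 groups (24.2 ± 19.9 against 29.5 ± 4.58 TPM in 2D, 12.9 ± 9.2 against 27.3 ± 1.42 in 3D) and before it in both D2.OR groups. Within the groups, neighbors whose ranges did not overlap were Jund and Fosl2, Egr1 and Fosl1, Fosl1 and Jun, and Atf3 and Fosb in D2A1 in 2D. In D2A1 in 3D they were Jund and Fosl1, and Atf3 and Fosb, in D2.OR in 2D Jund and Fosl2, and Fosl1 and Maff, and in D2.OR in 3D Maff and Atf3. Over all libraries, Egr1 and Fos varied most, with a highest library 45 and 24.5 times the lowest. Maff varied least, at 1.89 times. The lowest expected count of any of these genes in a library was 189, for Fosb.

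**Figure D1:**
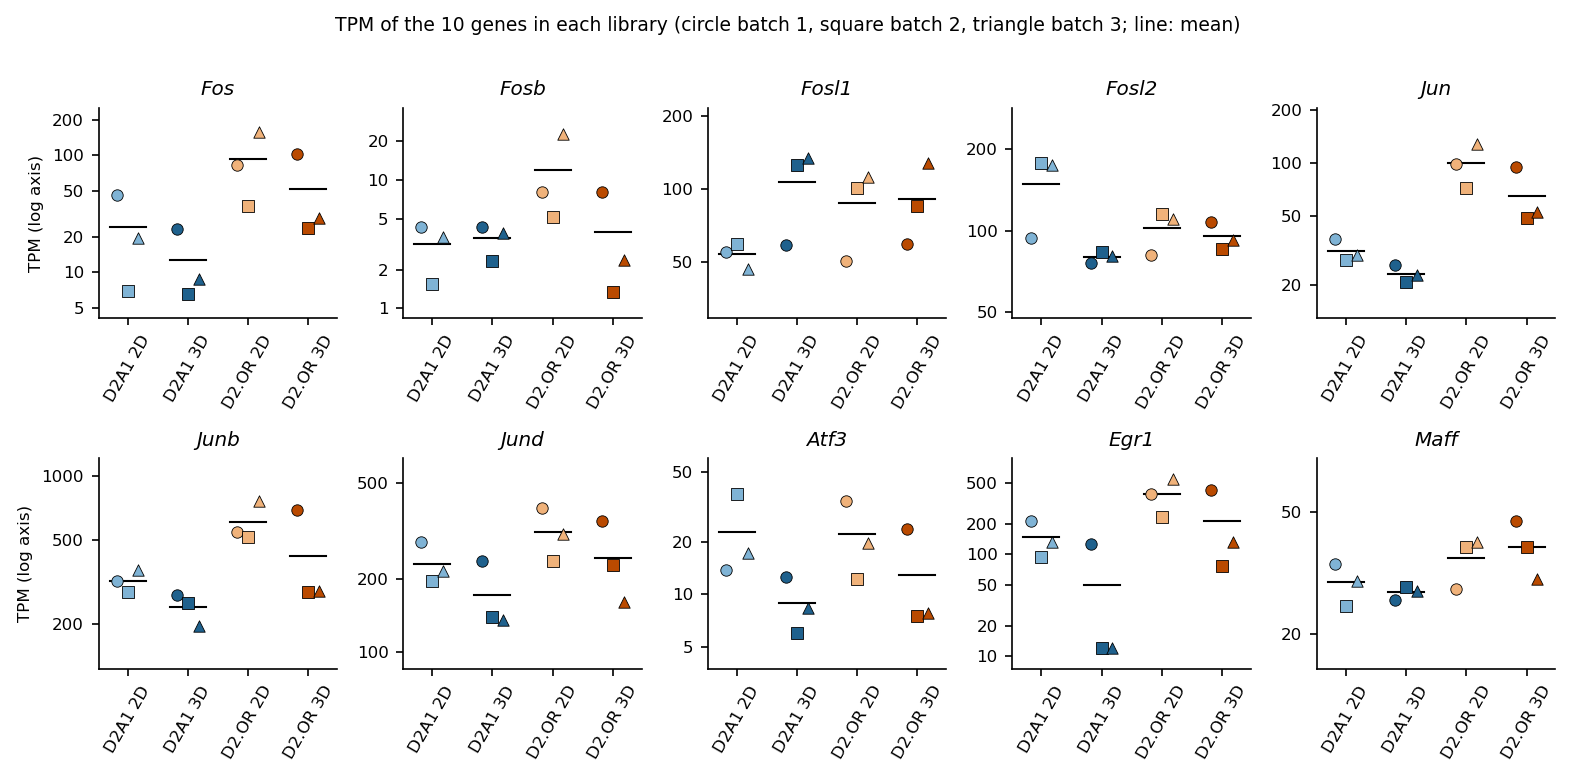
TPM of each of the 10 genes (log axis, 1 panel a gene) in the 3 libraries of each group, with the symbol marking the batch and the line the group mean. Jun lies above D2A1 in every D2.OR library, while Fos, Fosb and Egr1 spread widely within each group and batch 1 tends to lie high for Fos and Egr1.

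The promoter sequences of the 4 genes with the largest D2.OR excess in 2D that also have a reference start at or near the start in the files are given first, to show what lies next to the transcription start. RefSeq promoter windows (build GRCm38.p6) matched 8 of the 10 genes, Fosl1 and Egr1 having no entry. The 250 bases before the start are printed for Fos on the plus strand (chr12:85473640-85473889), and for Fosb (chr7:19310046-19310295), Jun (chr4:95052223-95052472) and Junb (chr8:84978749-84978998) on the minus strand, each 5′ to 3′. These starts lay 0, 6, 0 and 30 bases from the gene starts in the files. Capitals mark matches to TATAAA (bound by TBP), TGANTCA (the AP-1 site), TGACNTCA (the related ATF/CREB site), GCGNGGGCG (the EGR site), TGACG (the first letters of the ATF/CREB site) and the CArG box bound by SRF, searched on both strands.
Fos: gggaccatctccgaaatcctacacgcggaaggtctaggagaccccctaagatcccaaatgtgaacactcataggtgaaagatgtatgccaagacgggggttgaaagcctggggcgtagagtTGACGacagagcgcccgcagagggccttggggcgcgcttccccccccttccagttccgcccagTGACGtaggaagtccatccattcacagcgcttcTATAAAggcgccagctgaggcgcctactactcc
Fosb: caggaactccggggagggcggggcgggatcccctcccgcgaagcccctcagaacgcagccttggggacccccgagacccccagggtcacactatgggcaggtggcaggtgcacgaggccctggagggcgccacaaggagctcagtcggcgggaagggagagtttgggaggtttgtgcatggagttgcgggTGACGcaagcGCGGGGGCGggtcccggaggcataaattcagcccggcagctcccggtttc
Jun: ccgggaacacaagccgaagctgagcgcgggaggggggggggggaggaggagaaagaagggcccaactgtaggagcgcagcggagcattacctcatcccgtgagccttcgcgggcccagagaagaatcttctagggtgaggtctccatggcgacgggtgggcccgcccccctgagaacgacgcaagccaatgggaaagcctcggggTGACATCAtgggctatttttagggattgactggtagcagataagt
Junb: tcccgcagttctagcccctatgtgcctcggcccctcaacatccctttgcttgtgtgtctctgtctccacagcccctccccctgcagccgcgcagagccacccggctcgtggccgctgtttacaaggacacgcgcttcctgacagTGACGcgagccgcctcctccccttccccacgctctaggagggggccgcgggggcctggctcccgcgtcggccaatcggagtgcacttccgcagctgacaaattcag
The Fos window held a TATAAA 33 bases before the start and a TGACG at 129 and at 66 bases. In the Jun window a TGACNTCA match began 45 bases before the start. Fosb had an EGR-type match at 50 bases and a TGACG at 60 bases, and Junb a TGACG at 106 bases. Over all 32851 windows of this length, 12.4% held TATAAA, 7.49% TGACNTCA, 6.75% TGANTCA, 4.7% GCGNGGGCG, 1.47% a CArG box and 17.8% TGACG. This last motif was added after the sequences had been seen, and it can overlap TGACNTCA. No TGANTCA or CArG box lay in the 4 windows, which speaks only of these letters in these 250 bases. The other windows started 21 to 34706 bases from the gene starts in the files and are not printed.

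The first comparison asked how the cell lines differed in 2D. In D2.OR, 6 of the 10 genes were higher than in D2A1 (Fos, Fosb, Jun, Junb, Jund and Egr1), by 1.47- to 5.11-fold, and none was lower. Fosl1, Fosl2, Atf3 and Maff did not pass the test, though Fosl1 was higher at an unadjusted p under 0.05, and DESeq2 called it too (7 of 10 genes, where it called 52.3% of all). As background, 49.8% of the 16823 genes tested passed in this comparison. Those higher in D2.OR made up 25.4% of all genes tested, and the 6 of 10 that were higher are to be read against that share. In 4 of the 10 genes (Fosb, Jun, Junb and Egr1) every D2.OR library lay above every D2A1 library in TPM, as it did in 22.1% of all genes tested. The test was edgeR's quasi-likelihood test with a block for the batch and Benjamini-Hochberg adjustment over all genes tested, at a threshold of 0.05, and fold changes and errors below are on the log2 scale from that fit.

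Fos, the prototype of the family and partner of the Jun proteins, stood at 46, 6.94 and 19.8 TPM in D2A1 in 2D (replicates 1 to 3 in turn, here and below) and at 82.4, 36.8 and 159 TPM in D2.OR in 2D. The groups overlapped, since the first D2A1 library exceeded the second D2.OR library, but D2.OR was higher in each of the 3 batches. The log2-fold change was 2.35 with a standard error of 0.46 (adjusted p = 0.00277, edgeR). Fosb, a close relative of Fos, was low in D2A1 at 4.32, 1.54 and 3.59 TPM and reached 8.04, 5.14 and 22.7 TPM in D2.OR, without overlap. Its log2-fold change was 2.09 ± 0.48 (SE, adjusted p = 0.00584, edgeR). Without the batch block the Fos difference missed the threshold (adjusted p = 0.0545, edgeR), and without replicate 2 the Fosb difference did (2.26, adjusted p = 0.0554, edgeR).

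Jun, the core partner in AP-1 dimers, gave the clearest separation. It measured 36.8, 27.8 and 30 TPM in D2A1 and 99.3, 71.9 and 129 TPM in D2.OR, so that the lowest D2.OR library was far above the highest D2A1 library. The log2-fold change was 1.79 ± 0.20 (SE, adjusted p = 9.98e-05, edgeR), a 3.46-fold difference, and no alternative ended the call. Within batches the log2 CPM difference was 1.56, 1.51 and 2.23.

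Junb, the most abundant of the 10, measured 317, 281 and 359 TPM in D2A1 and 546, 518 and 761 TPM in D2.OR, again without overlap. Jund, which is known for steady expression in resting cells, measured 284, 197 and 216 TPM in D2A1 and 396, 237 and 308 TPM in D2.OR. The Jund groups overlapped, and the log2-fold change was 0.56 ± 0.15 (SE, adjusted p = 0.0115, edgeR), against 1.07 ± 0.28 for Junb (SE, adjusted p = 0.0124, edgeR). Both calls were lost without replicate 2 (Junb 1.09, adjusted p = 0.0883, and Jund 0.63, adjusted p = 0.062, edgeR) and without the third D2.OR library in 2D (0.79 and 0.42, adjusted p = 0.0703 and 0.065, edgeR). Junb was also lost without replicate 3 (0.98, adjusted p = 0.0571, edgeR), and Jund without the batch block (0.57, adjusted p = 0.143, edgeR) and under limma on log2(TPM + 1) (0.42, adjusted p = 0.0526). Prdx2 on the opposite strand overlaps Junb and reached 697 TPM, and the antisense gene Gm11175 overlaps Jund and reached 88.9 TPM. Whether strand was used in counting is not given in the sources used here, so reads of these overlapping pairs cannot be told apart.

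Egr1, a zinc finger factor induced by the same signals, measured 215, 94.3 and 133 TPM in D2A1 and 390, 232 and 547 TPM in D2.OR. The groups did not overlap, though the lowest D2.OR value was close to the highest D2A1 value. The log2-fold change of 1.66 ± 0.55 (SE, adjusted p = 0.0322, edgeR) was lost under more alternatives than the calls of the other 5 genes. It missed the threshold without replicate 2 or 3 (adjusted p = 0.154 and 0.14, edgeR), and when the first, the second or the third D2A1 library in 2D was left out (1.41, 1.91 and 1.75, adjusted p = 0.0928, 0.0583 and 0.081). The same held without the second or the third D2.OR library in 2D (1.59 and 1.06, adjusted p = 0.0977 and 0.173) and without the batch block (1.53, adjusted p = 0.188), all by edgeR. Under limma it missed the threshold on log2(TPM + 1) and log2(TPM + 0.1) alike (1.39 and 1.40, adjusted p = 0.0686 and 0.0649).

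Of the other 4 genes, Fosl1 measured 55.4, 59.3 and 47.2 TPM in D2A1 and 50.8, 101 and 112 TPM in D2.OR, a log2-fold change of 0.70 ± 0.27 (SE, adjusted p = 0.0564, edgeR). In batch 1 the lines were close (log2 CPM difference 0.01) and in batches 2 and 3 D2.OR was higher. The difference passed without replicate 1 (1.13, adjusted p = 0.00233, edgeR), without the first D2A1 library in 2D (1.13, adjusted p = 0.00144) and without the first in 3D (0.73, adjusted p = 0.0416). Fosl2 measured 94.1, 178 and 175 TPM in D2A1 and 81.6, 115 and 111 TPM in D2.OR. Its log2-fold change was -0.24 (95% interval -0.67 to 0.19), and it passed as lower in D2.OR without replicate 1 (-0.35, adjusted p = 0.0161, edgeR) and without the first D2A1 library in 2D (-0.45, adjusted p = 0.0348). Atf3, a stress-induced ATF family factor that often represses, ranged from 13.8 to 37.3 TPM in D2A1 and from 12.2 to 34 TPM in D2.OR, with an interval of -1.22 to 1.05. For Maff, a small Maf protein that has no transactivation domain of its own, the interval was -0.04 to 0.83, and its difference passed without replicate 1 (0.65, adjusted p = 0.00787, edgeR) and without the first D2.OR library in 2D (0.59, adjusted p = 0.0322, edgeR).

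Leaving out libraries moved the count of 6. Without replicate 2 only Fos and Jun passed, where 24.9% of all genes tested passed, and without the third D2.OR library in 2D Fos, Fosb and Jun passed, where 39.1% did.

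**Figure D2:**
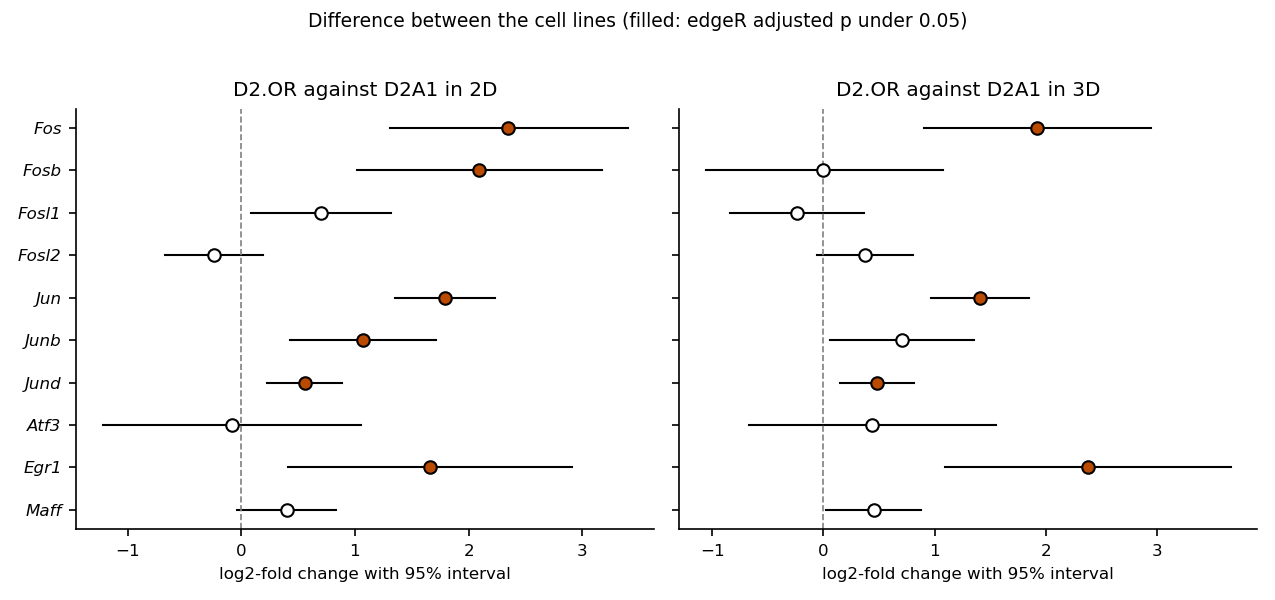
Log2-fold change of D2.OR against D2A1 for each of the 10 genes in 2D (left) and in 3D (right), with 95% intervals from edgeR and filled points where the adjusted p was under 0.05. In 2D the filled points run from 0.56 (Jund) to 2.35 (Fos), and in 3D Fosb lies at 0.

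The same comparison in 3D asked whether the lines differed under the conditions in which D2.OR is used as a dormancy model. In D2.OR, 4 of the 10 genes were higher (Fos, Jun, Jund and Egr1) and none was lower, where 53.8% of all genes tested passed and 27.7% of all genes tested passed as higher in D2.OR. DESeq2 called 6 genes, these 4 with Junb and Maff, and 56.1% of all genes. Fos measured 23.4, 6.48 and 8.71 TPM in D2A1 and 103, 23.8 and 28.9 TPM in D2.OR. The groups did not overlap, by a narrow margin, and the log2-fold change was 1.92 ± 0.45 (SE, adjusted p = 0.00605, edgeR). Jun was at 26.1, 20.8 and 22.9 TPM in D2A1 and at 94.6, 48.4 and 52.4 TPM in D2.OR, with a log2-fold change of 1.41 ± 0.19 (SE, adjusted p = 0.000327, edgeR). As in 2D, every D2.OR library lay above every D2A1 library for Jun.

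Egr1 showed the largest difference in 3D, a 5.19-fold higher level in D2.OR (log2-fold change 2.38 ± 0.57, SE, adjusted p = 0.00665, edgeR). Its D2A1 libraries stood at 127, 12.1 and 12.2 TPM and its D2.OR libraries at 432, 77.2 and 132 TPM. The first D2A1 library exceeded the second D2.OR library, so the groups overlapped, but D2.OR was higher within each batch. Jund measured 239, 140 and 136 TPM in D2A1 and 347, 228 and 161 TPM in D2.OR, an overlapping difference of 0.48 ± 0.15 (SE, adjusted p = 0.0212, edgeR).

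Only the Jun call was kept without replicate 2, where 31% of all genes tested passed. Fos (2.00, adjusted p = 0.0528), Egr1 (2.27, adjusted p = 0.0829) and Jund (0.38, adjusted p = 0.182) missed the threshold there, all by edgeR. Jund also missed it without replicate 1 (0.46, adjusted p = 0.0652), without the second or the third D2A1 library in 3D (0.47 and 0.45, adjusted p = 0.0715 and 0.0758) and without the first or second D2.OR library in 3D (0.42 and 0.35, adjusted p = 0.0779 and 0.106). With the library total alone as scaling its adjusted p was 0.0554 (0.38, edgeR). Without the batch block, Fos (2.00, adjusted p = 0.0591), Jund (0.48, adjusted p = 0.195) and Egr1 (2.09, adjusted p = 0.0788) did not pass.

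In 3D, 5 of the 10 genes (Fos, Fosl2, Jun, Junb and Maff) had every D2.OR library above every D2A1 library, as had 29.1% of all genes tested. Of these, Junb and Maff did not pass edgeR's test but were called by DESeq2 (0.73 and 0.47, adjusted p = 0.0327 and 0.0493). Junb measured 273, 250 and 195 TPM in D2A1 and 691, 283 and 287 TPM in D2.OR (log2-fold change 0.71 ± 0.29, SE, adjusted p = 0.0621, edgeR), the first D2.OR library standing far above the rest. It passed without the second D2A1 library in 3D (0.92, adjusted p = 0.0485) and without the third D2.OR library in 3D (0.93, adjusted p = 0.0335). Maff was at 25.8, 28.5 and 27.7 TPM in D2A1 and at 46.6, 38.3 and 30.3 TPM in D2.OR (0.45 ± 0.19, SE, adjusted p = 0.0734, edgeR). The Maff difference passed without the first D2.OR library in 2D (0.44, adjusted p = 0.0487) and without the third in 3D (0.62, adjusted p = 0.0332), both by edgeR.

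Fosb measured 4.26, 2.35 and 3.89 TPM in D2A1 and 8.03, 1.34 and 2.38 TPM in D2.OR in 3D. D2.OR was higher in batch 1 and lower in batches 2 and 3, and the log2-fold change was 0.00 with a 95% interval of -1.06 to 1.07. Its line difference in 3D less that in 2D, which is the interaction given further on, did not pass the test (adjusted p = 0.176, edgeR). For Fosl1 the interval was -0.84 to 0.36 and for Atf3 -0.67 to 1.55. Fosl2 was higher in every D2.OR library (85.6 to 108 TPM) than in any D2A1 library (76 to 83.6 TPM), with a log2-fold change of 0.37 ± 0.19 (SE, adjusted p = 0.124, edgeR), and it passed without the first D2A1 library in 2D (0.36, adjusted p = 0.0446, edgeR).

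The study's 3D culture was next set against 2D within each line. None of the 10 genes passed edgeR's test in either line, where 1.62% of all genes tested passed in D2.OR and 3.48% in D2A1. At an unadjusted p under 0.05 there were 6 genes in D2.OR, where 17.6% of all genes had such a p, and 5 in D2A1, where 31.4% had. DESeq2's likelihood-ratio test called 2 in D2.OR (Fosb and Jun, lower in 3D), where it called 6.98% of all genes, and 4 in D2A1 (Fosl1 higher, and Fosl2, Atf3 and Egr1 lower), where it called 20.9%. The median log2-fold change of the 10 genes was -0.69 in D2.OR and -0.34 in D2A1, against 0 for all genes tested in each line. In D2.OR the TPM ranges of all 10 genes overlapped between 3D and 2D, whereas those of 20.6% of all genes tested did not. In D2A1 the ranges of Fosl2, Jun, Junb and Atf3 did not overlap, all lower in 3D. Over all genes tested in D2A1, 24.8% did not overlap, and 15.3% of all genes were those lower in 3D.

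The batches did not move alike, as the within-batch differences showed. In D2.OR, Egr1 measured 390, 232 and 547 TPM in 2D and 432, 77.2 and 132 TPM in 3D. By batch, the log2 CPM differences were 0.03, -1.59 and -2.06. In D2A1 the differences for Egr1 were -0.73, -2.76 and -3.30, from 215, 94.3 and 133 TPM in 2D to 127, 12.1 and 12.2 TPM in 3D. Egr1 was thus lower in 3D in batches 2 and 3 of both lines by a wide margin, and in batch 1 the cultures lay closer together. The fit over all batches gave -1.38 ± 0.55 in D2.OR (SE, adjusted p = 0.241, edgeR) and -2.09 ± 0.58 in D2A1 (SE, adjusted p = 0.0624, edgeR).

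Fosb in D2.OR behaved in a similar way, with within-batch log2 CPM differences of -0.22, -1.80 and -3.23 and a fitted log2-fold change of -1.76 ± 0.48 (SE, adjusted p = 0.112, edgeR). Its 2D libraries held 8.04, 5.14 and 22.7 TPM and its 3D libraries 8.03, 1.34 and 2.38 TPM, with the 3D library of batch 1 inside the 2D range. For Fos in D2.OR the differences were 0.21, -0.64 and -2.39, for Jun -0.20, -0.60 and -1.30, and for Junb 0.21, -0.90 and -1.41. In each of these genes batch 3 moved most and batch 1 least. Jun, Jund and Atf3 were lower in 3D in all 3 batches of both lines. Their adjusted p was 0.108, 0.168 and 0.377 in D2.OR and 0.265, 0.133 and 0.1 in D2A1 (edgeR). For Jun in D2A1 the differences were -0.48, -0.26 and -0.25.

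The 2 late Fos-family genes had fitted values of opposite sign in D2A1, and neither passed. Fosl1 measured 55.4, 59.3 and 47.2 TPM in 2D and 58.9, 126 and 135 TPM in 3D, a log2-fold change of 0.96 ± 0.27 (SE, adjusted p = 0.0659, edgeR). Fosl2 measured 94.1, 178 and 175 TPM in 2D and 76, 83.6 and 81 TPM in 3D, a log2-fold change of -0.73 ± 0.19 (SE, adjusted p = 0.0587, edgeR). The Fosl2 groups did not overlap and the Fosl1 groups did, through batch 1. In D2.OR the same genes gave 0.01 (95% interval -0.59 to 0.62) and -0.12 (-0.55 to 0.31). Atf3 in D2A1 was at 13.8, 37.3 and 17.2 TPM in 2D and at 12.5, 6.01 and 8.36 TPM in 3D, every 3D library being below every 2D library (-1.42 ± 0.51, SE, adjusted p = 0.1, edgeR).

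**Figure D3:**
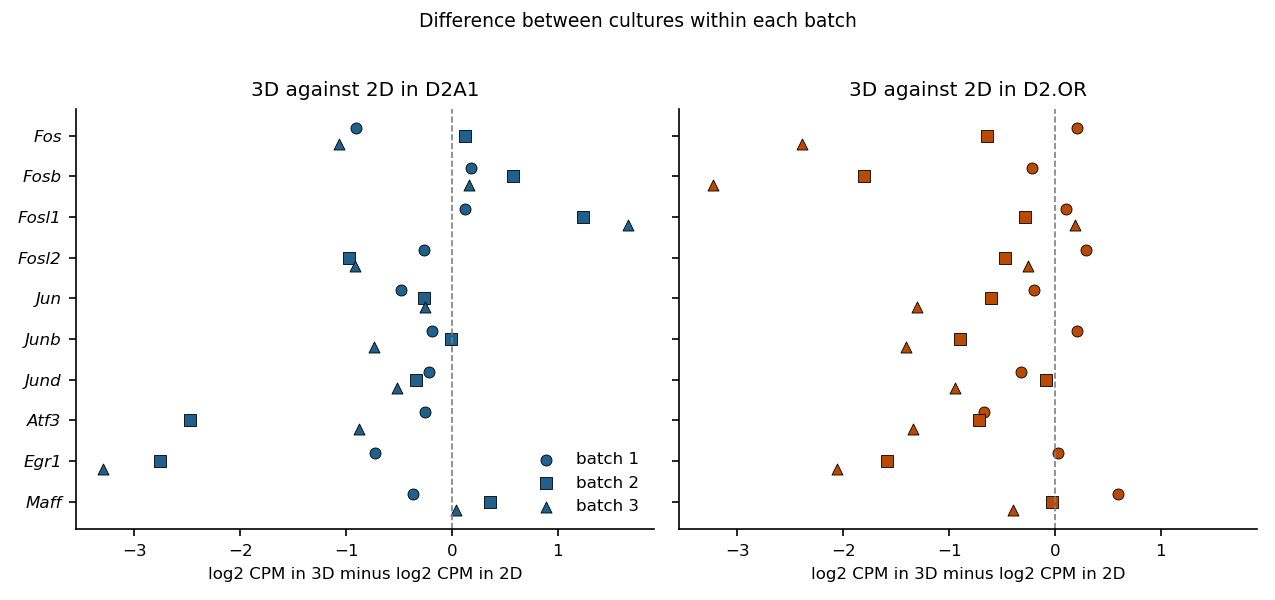
Difference in log2 CPM between 3D and 2D within each batch for the 10 genes in D2A1 (left) and D2.OR (right); symbols mark the batches. Egr1 lies furthest to the left in D2A1 (-3.30 in batch 3) and Fosb in D2.OR (-3.23 in batch 3), while batch 1 (circles) lies nearer to 0 for both.

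Leaving out batch 1 changed these counts. In D2.OR, Fosb (-2.62 ± 0.37, SE, adjusted p = 0.0089), Jun (-0.97 ± 0.18, adjusted p = 0.0225), Junb (-1.17 ± 0.20, adjusted p = 0.0169) and Egr1 (-1.86 ± 0.25, adjusted p = 0.00807) were lower in 3D in edgeR's fit to the 8 other libraries, where 8.38% of all genes tested passed. In D2A1, Fosl1 was higher (1.43 ± 0.19, adjusted p = 0.0018) and Fosl2 (-0.94 ± 0.09, adjusted p = 0.00064), Atf3 (-1.77 ± 0.40, adjusted p = 0.013) and Egr1 (-3.00 ± 0.27, adjusted p = 0.000462) were lower. In that line 36.3% of all genes passed, so 4 of 10 genes was near the background. Single libraries of batch 1 had part of this effect. Without the first D2.OR library in 3D, Fosb (-2.41, adjusted p = 0.0325), Jun (-0.93, adjusted p = 0.0498) and Junb (-1.11, adjusted p = 0.0407) passed in D2.OR, where 1.61% of all genes did. In D2A1 the same 4 genes as without batch 1 passed without its first 2D library (Fosl1 1.37, Fosl2 -0.96, Atf3 -1.94 and Egr1 -2.46), where 30.3% of all genes did. Without its first 3D library Fosl1 (1.17) and Egr1 (-2.95) passed, with 12.8% of all genes. Egr1 also passed in D2A1 without the first D2.OR library in 2D (-2.25, adjusted p = 0.0458), with 2.71% of all genes, and Fosl2 without the first D2.OR library in 3D (-0.72, adjusted p = 0.0486), with 2.08%. All of these are edgeR fits, and those without batch 1 rest on 2 libraries a group.

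Whether the response to 3D differed between the lines was tested by the interaction of cell line and culture. None of the 10 genes passed edgeR's test, where 0.0238% of all genes tested passed. At an unadjusted p under 0.05 there were 3, against 17.8% of all genes, and DESeq2 called 1 (Fosb), against 5.66%. The largest value was that of Fosb, at -2.09 ± 0.66 (SE, adjusted p = 0.176, edgeR), which is the D2.OR difference of -1.76 less the D2A1 difference of 0.33. Fosl1 came to -0.94 ± 0.38 (adjusted p = 0.25) and Fosl2 to 0.61 ± 0.27 (adjusted p = 0.276). Without batch 1, Fosb (-3.00, adjusted p = 0.0111), Fosl1 (-1.46, adjusted p = 0.0141) and Fosl2 (0.58, adjusted p = 0.0261) passed edgeR's test, against 17.8% of all genes. Without the first D2A1 library in 2D, Fosl1 (-1.36, adjusted p = 0.0125) and Fosl2 (0.81, adjusted p = 0.033) passed, with 14.5% of all genes.

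The make-up of the Fos and Jun families, as each gene's share of the family's summed TPM, followed from these levels. Fosl2 made up 47.1% to 72.5% of Fos-family transcripts in D2A1 in 2D and 35.4% to 46.7% in D2A1 in 3D, while Fosl1 made up 19.3% to 27.7% and 36.2% to 59.1%. For both genes the 2D and 3D shares did not overlap in that line, for Fosl2 by a narrow margin. In batch 1 the Fosl2 share was 47.1% in 2D and 46.7% in 3D, while it fell in batches 2 and 3 (72.5% to 38.3% and 71.2% to 35.4%). In D2.OR the Fosl2 share was 27.4% to 44.7% in 2D and 36.7% to 43.7% in 3D, and the Fosl1 share 22.8% to 39.1% and 21.4% to 50.9%, with overlap. Fos itself made up 14.3% to 39.3% in D2.OR in 2D, 11.4% to 37% in D2.OR in 3D, 2.82% to 23% in D2A1 in 2D and 2.97% to 14.4% in D2A1 in 3D. Fosb never exceeded 5.6% of the family. In the Jun family Junb took 49.7% to 63.5% in every library. The Jun share separated the lines, at 4.85% to 6.46% in D2A1 and 8.35% to 10.8% in D2.OR over both cultures. The summed Jun family stood at 506 to 637 TPM in D2A1 in 2D and 827 to 1198 TPM in D2.OR in 2D, without overlap, and at 354 to 538 and 501 to 1133 TPM in 3D, with overlap. The summed Fos family overlapped in 2D (200 to 246 against 223 to 405 TPM).

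**Figure D4:**
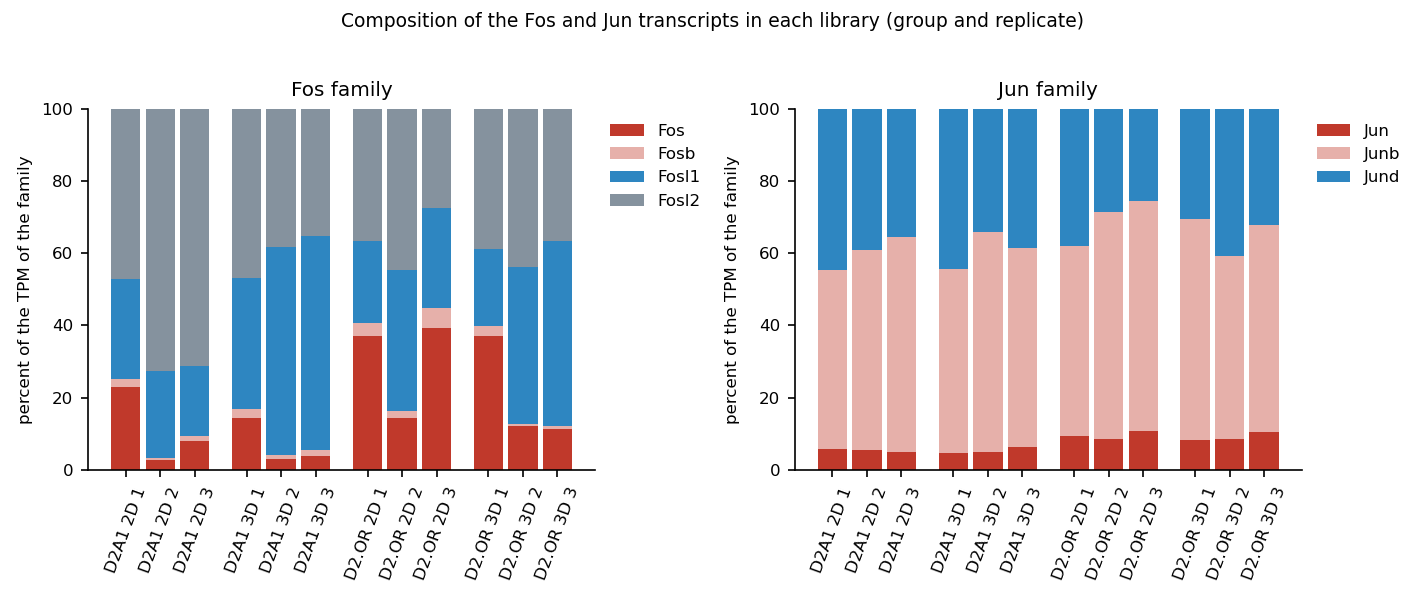
Share of each gene in the summed TPM of the Fos family (left) and the Jun family (right), 1 bar for each library, grouped by cell line and culture. In D2A1 the Fosl1 part widens from at most 27.7% in 2D to at least 36.2% in 3D, and Junb takes 49.7% to 63.5% of the Jun family in all 12 libraries.

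The batches themselves differed in these genes. In batch 1, Fos (log2-fold change 1.35 ± 0.32, SE, adjusted p = 0.027), Egr1 (1.71 ± 0.42, adjusted p = 0.0279) and Jund (0.62 ± 0.11, adjusted p = 0.00838) were higher than in batches 2 and 3, and Fosl1 was lower (-0.76 ± 0.21, adjusted p = 0.0443), all by edgeR. These are 4 of 10 genes, where 13.3% of all genes tested passed, made up of 8.48% of all genes as higher and 4.8% as lower in batch 1. The 4 Egr1 libraries of batch 1 held 215, 127, 390 and 432 TPM (D2A1 in 2D and 3D, then D2.OR in 2D and 3D), those of batch 2 94.3, 12.1, 232 and 77.2 TPM and those of batch 3 133, 12.2, 547 and 132 TPM. In D2.OR in 2D batch 3 was the highest, and in the other groups batch 1 was. Between batches 3 and 2 none of the 10 genes passed edgeR's test (2 at an unadjusted p under 0.05, Fos and Fosb, where 2.72% of all genes had such a p, and none by DESeq2), and 0 genes, or 0%, passed over the whole table.

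The batch calls leaned on single libraries, except for Jund, which passed in every fit that left out 1 library. Without the first or the third D2A1 library in 3D (where 7.61% and 8.69% of all genes passed), the second D2.OR library in 2D (8.93%) or the first or the third D2.OR library in 3D (8.65% and 8.15%), Jund alone passed. Fos (log2-fold change 1.14 to 1.70 over all 12 fits) also missed the threshold without the first or second D2A1 library in 2D (1.14 and 1.25, adjusted p = 0.0659 and 0.0628). Egr1 (1.09 to 2.14) missed it too without the second D2A1 or second D2.OR library in 3D (1.57 and 1.67, adjusted p = 0.0793 and 0.0606). Fosl1 (-1.07 to -0.61) passed only without the first or the third D2A1 library in 2D. Atf3 passed without the first or second D2A1 library in 2D (1.09 and 0.88, adjusted p = 0.0306 and 0.0459), and Jun without the third D2.OR library in 2D (0.44, adjusted p = 0.0424).

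Other genes of the pathway were followed in lists that were picked for their known roles, with earlier results of these data known. The counts between the lines are to be read against the shares of all genes tested that passed, 49.8% in 2D (25.4% as higher) and 53.8% in 3D (27.7% as higher). Of the other immediate-early and early response genes, 20 of 31 tested were higher in D2.OR in 2D and 1 was lower, with a median log2-fold change of 1.34 against 0 for all genes tested. The smallest p-values belonged to Zfp36l1, which codes for an mRNA-decay protein (2.43 ± 0.18, SE, adjusted p = 1.18e-05, edgeR), Klf6, a zinc finger factor (1.74 ± 0.15), and Rhob, a small GTPase (1.66 ± 0.19). In TPM, Zfp36l1 stood at 37.2 to 45.6 in D2A1 and 161 to 264 in D2.OR in 2D, and Klf6 at 46.6 to 91.9 and 129 to 267. In 3D 17 of 31 were higher in D2.OR and 3 lower, among them Myc, higher by 2.45 ± 0.27 (SE, adjusted p = 1e-04, edgeR).

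Of the known AP-1 target genes, 12 of 18 were higher in D2.OR in 2D and 2 lower, with a median of 1.90, and 9 were higher and 3 lower in 3D. In all 77.8% of the targets passed in 2D and 66.7% in 3D, counting both directions, beside 49.8% and 53.8% of all genes. The list was picked with earlier results of these data known, so these shares describe it only. Tenascin C (Tnc), a matrix glycoprotein, was at 0.33 to 0.58 TPM in D2A1 and 48.8 to 141 TPM in D2.OR in 2D. Urokinase (Plau), a secreted protease, was at 5.72 to 18.7 and 109 to 236 TPM, and the hyaluronan receptor gene Cd44 at 56.3 to 69 and 88.8 to 171 TPM. The log2-fold changes in 2D were 7.85 ± 0.50, 4.32 ± 0.54 and 1.25 ± 0.17 (SE, adjusted p = 4.48e-06, 0.000223 and 0.000345, edgeR).

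The upstream side of the pathway was counted in the same way. Of 22 entries tested among MAP kinases, RAS and RAF genes, SRF and its partners (the symbol Map2k7 has 2), 4 were higher and 4 lower in D2.OR in 2D, and 6 and 6 in 3D, with a median of 0.02 in both. The shares that passed, 36.4% and 54.5%, stood beside 49.8% and 53.8% of all genes. Elk3, a partner of SRF, was higher in D2.OR in 2D (1.10 ± 0.13) and Mapk9, which codes for JNK2, a kinase of Jun, was lower (-0.64 ± 0.08), each with an adjusted p of 0.000155 (SE, edgeR). In 3D Srf was higher in D2.OR (0.77 ± 0.14, adjusted p = 0.0013) and Elk1 lower (-0.54 ± 0.09, adjusted p = 0.000745).

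Of the genes that report or damp ERK activity, 5 of 16 were higher and 1 lower in D2.OR in 2D, and 8 and 2 in 3D. That is 37.5% and 62.5% of the list, against 49.8% and 53.8% of all genes. Dusp5, a nuclear phosphatase of ERK, was at 5.64 to 9.56 TPM in D2A1 and 50.6 to 80.3 TPM in D2.OR in 2D (3.36 ± 0.31, SE, adjusted p = 3.8e-05, edgeR). Spry2, a feedback inhibitor of the pathway, was higher by 1.11 ± 0.13 (adjusted p = 0.000182). Among the other AP-1 related factors with a basic leucine zipper, 4 of 23 were higher and 5 lower in 2D, and 5 and 4 in 3D (39.1% of the list in both). Mafk, another small Maf gene, was at 16.3 to 29.8 TPM in D2A1 and 44 to 53.7 TPM in D2.OR in 2D (1.38 ± 0.13, SE, adjusted p = 5.26e-05, edgeR), and Batf2, which was nearly absent from D2A1 at 0.03 to 0.17 TPM, reached 2.38 to 5.28 TPM in D2.OR.

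Between 3D and 2D at most 2 genes of each list passed in a line, where 1.62% of all genes tested did in D2.OR and 3.48% in D2A1. In D2.OR, Klf6 fell in 3D by 0.77 on the log2 scale (adjusted p = 0.0446, edgeR), and Dusp4, another ERK phosphatase gene, rose by 1.67 (adjusted p = 0.0317). In D2A1, Dusp1, a phosphatase of MAP kinases and itself an immediate-early gene, fell by 1.77 (adjusted p = 0.0321), from 181 to 289 TPM in 2D to 44.2 to 123 TPM in 3D. Spry1 (-2.38, adjusted p = 0.0488) and Atf6, a sensor of endoplasmic reticulum stress (-0.86, adjusted p = 0.0319), fell too, and Nfkbiz (1.02, adjusted p = 0.0472), Batf3 (1.78, adjusted p = 0.0466) and Mmp9 (2.14, adjusted p = 0.0404, below 1 TPM in each D2A1 library) rose. None of the genes of any list passed edgeR's interaction test, which 0.0238% of all genes tested passed, so that a count of 0 is near the background. At an unadjusted p under 0.05 there were between 2 and 6 in each list, where 17.8% of all genes had such a p.

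Because 3D cells were chilled before lysis, heat and cold stress genes were counted as well. Of 11 tested, 0 passed edgeR's test between 3D and 2D in D2.OR (0 at an unadjusted p under 0.05) and 0 in D2A1 (5 unadjusted). Over all genes tested 1.62% and 3.48% passed, and 17.6% and 31.4% had an unadjusted p under 0.05, so counts of 0 that passed are near the background. The cold-induced gene Rbm3 was at 505 to 757 TPM in D2A1 in 2D and 805 to 1118 TPM in 3D, and at 561 to 678 and 507 to 725 TPM in D2.OR. Cirbp, of the same list, was at 9.58 to 20 TPM in D2A1 in 2D and 12.8 to 14.6 TPM in 3D. In D2.OR it was at 21.9, 25.4 and 20 TPM in 2D and 28.2, 33.9 and 24.9 TPM in 3D, higher in 3D in each batch. Between the lines, 4 stress genes were higher and 2 lower in D2.OR in 2D, and 4 and 6 in 3D. That is 54.5% and 90.9% of the list, where 49.8% and 53.8% of all genes tested passed. The part of chilling in the values of the 10 genes was not tested.

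The lists in batch 1 are to be read against 13.3% of all genes tested that passed, with 8.48% higher and 4.8% lower. In batch 1, the list of other immediate-early genes had 11 of 31 higher and 1 lower, with Btg2, an antiproliferative gene (1.95 ± 0.27, SE, adjusted p = 0.00345, edgeR), Klf6 (0.89 ± 0.11) and Rhob (0.98 ± 0.14) leading. The known AP-1 targets had none higher and 8 of 18 lower in batch 1, led by the cytokine gene Il11 (-3.35 ± 0.56, SE, adjusted p = 0.00734, edgeR), the EGF receptor ligand gene Areg (-3.02 ± 0.52) and the urokinase receptor gene Plaur (-1.24 ± 0.23). Of the ERK-related genes 2 were higher and 4 lower, and of the 22 upstream entries none passed edgeR's test (3 at an unadjusted p under 0.05, where 29.1% of all genes had one). Of the 23 other leucine zipper factors 2 were higher and 1 lower, or 13%, near the share of all genes, and of the 11 stress genes 1 each.

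**Figure D5:**
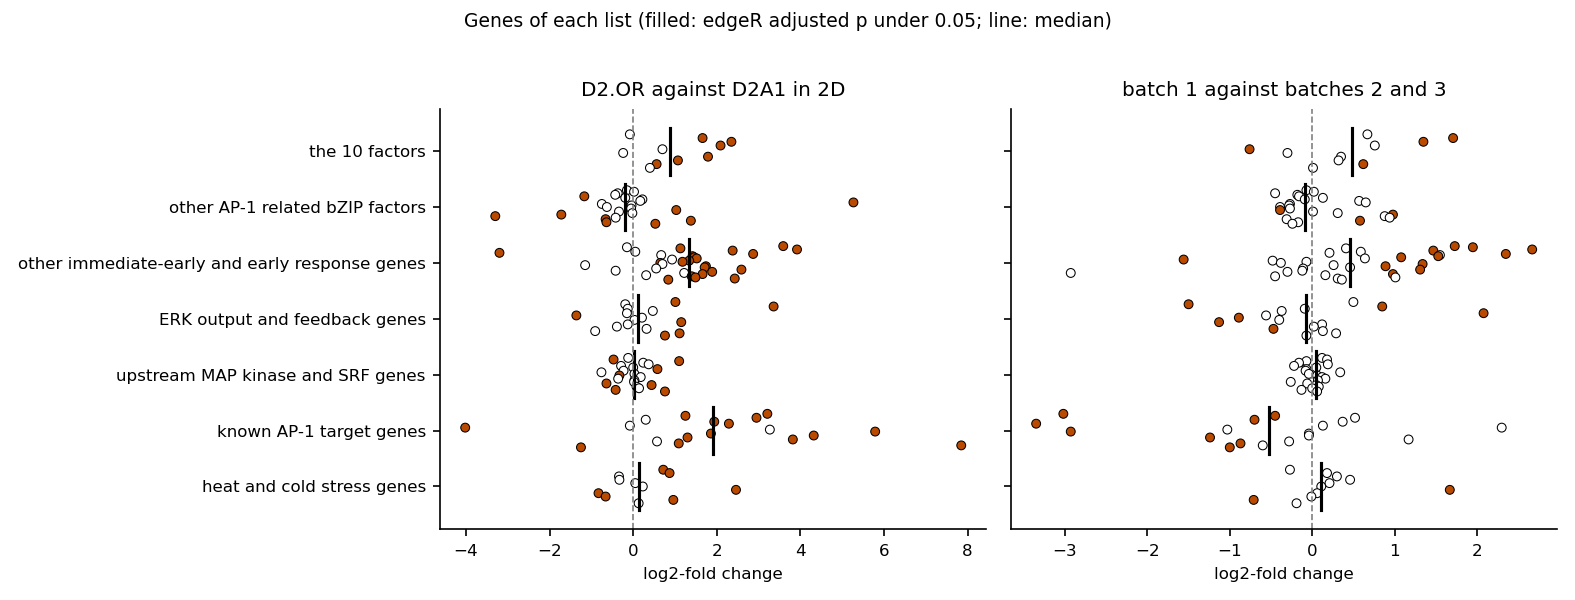
Log2-fold changes of the 10 genes and of each pathway list for D2.OR against D2A1 in 2D (left) and for batch 1 against batches 2 and 3 (right), 1 point a gene, filled where edgeR's adjusted p was under 0.05, with the list median as a line. The known AP-1 targets have a median of 1.90 between the lines and of -0.52 between the batches, and the upstream genes have medians of 0.02 and 0.05, with 4 higher and 4 lower between the lines.

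How the 10 genes varied together was described by Pearson's r of log2 CPM over the 12 libraries after subtracting each batch mean. The libraries share their cell line and culture, so r mostly repeats the group differences, and no p is given. Fos and Jun (r = 0.96), Fos and Junb (0.91), Jun and Junb (0.91), and Fos and Jund (0.90) moved together. Fosl1 ran against Fosl2 (-0.74) and was near 0 with Junb (0.01), and Atf3 came nearest to Fosl2 (0.82). Among all genes tested, those with the highest r were Ier5l (0.98), Numb (0.98) and Tusc3 (0.97) for Fos, Klf6 (0.99), Tusc3 (0.99) and Arhgap5 (0.98) for Jun, and Prr12, Snai1 and Ier2 (0.97 each) for Junb. For Egr1 they were Osbpl5, Sphk1 and H2-K1 (0.98 each), for Fosb Gm12161 (0.91), Erf and Csrnp1 (0.90 each), and for Jund H2-K2, Trim69 (0.96 each) and Zfp821 (0.94). For Fosl1 they were Polr2j (0.98), Cetn3 (0.97) and Gm5641 (0.96), and for Fosl2 Gpr107, Ube2w (0.97 each) and Ep300 (0.96). Atf3 was nearest to Zfr, Gpbp1 (0.95 each) and Ppp1r15a (0.94), and Maff to Myo1c (0.98), Spon1 (0.96) and Kifc3 (0.95).

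By position in GRCm38 the 10 genes lie on 9 chromosomes, with only Junb (84974484 to 84978718) and Jund (70698949 to 70700616) on the same one, 8. Fos lies on 12 (85473890 to 85477273), Fosb on 7 (19302696 to 19310051), Jun on 4 (95049034 to 95052222), Fosl1 on 19 (5447703 to 5455945) and Fosl2 on 5 (32135801 to 32157842). Atf3 lies on 1 (191170296 to 191218039), Maff on 15 (79347541 to 79359072) and Egr1 on 18. All are annotated as protein coding. The short antisense gene Junos overlaps Jun and reached at most 1.51 TPM, and the overlapping Gm24748 at Atf3 was listed at 0 TPM in every library.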

How the data were processed

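RNA-seq was analysed from 12 libraries (4 groups of 3). The authors trimmed reads (Trimmomatic 0.32, after FastQC 0.11.4), aligned them with STAR 2.5.3 to GRCm38 (GENCODE M15 gene models) and ran RSEM 1.3.0 for gene levels, tools and versions being credited to the submitters' processing notes. They deposited an expected count per gene, not normalized and not whole for 10.68% to 11.84% of genes, and TPM, normalized by the authors for gene length and library size. FPKM values were not used here. Expected counts were rounded and tested with edgeR 4.0.16 (R 4.3.3): TMM, filter on low counts (16823 of 52550 genes kept, the common biological coefficient of variation being 21.2%), terms for group and batch, quasi-likelihood test, Benjamini-Hochberg at 0.05. Log2 CPM used a prior count of 2. A standard error is the log2-fold change divided by the root of its F statistic.

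The batch is in the labels and in the study's model, so replicate numbers were treated as pairing the libraries. Deviations from group means correlated at 0.08 to 0.51 over 18 same-numbered pairs (median 0.27) and at -0.43 to 0.3 over 36 others (median -0.19). Because deviations within a group cancel out, part of this contrast is built in. The genes named are the 10, up to 3 per list and comparison with the smallest p, and the 3 most correlated with each. The list members called between 3D and 2D and the stress genes Rbm3 and Cirbp were also named, after their values were seen. The 10 genes and the lists were chosen with earlier results of these data known. The test was tried on simulated counts. Alternatives were no batch block, DESeq2 1.42.0, limma 3.58.1 on log2(TPM + 1) or log2(TPM + 0.1), other scalings and filters, the 6 libraries compared, and fits without 1 batch or 1 library.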

Additional observations from a re-analysis of the deposited data

Results flagged for a closer look

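For Fosb the difference between 3D and 2D went down in each of the 3 batches of D2.OR and up in each of the 3 batches of D2A1 on the log2 CPM scale, and the mean difference in D2.OR less that in D2A1 was -2.06. In D2.OR the differences were -0.22, -1.80 and -3.23 and in D2A1 they were 0.18, 0.58 and 0.16. On the TPM scale batch 1 of D2A1 did not rise, at 4.32 in 2D and 4.26 in 3D. The difference was tested as the interaction in edgeR's fit, which gave -2.09 ± 0.66 (SE) with an adjusted p of 0.176 and did not pass.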

How the results depend on the processing

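Jun was higher in D2.OR in 2D and in 3D under all alternatives run. Without the replicate block, which leaves the batch in the spread, 3 of the 10 genes passed in 2D (Fosb, Jun, Junb; 43.9% of all genes) and 1 in 3D (Jun; 47.8%), and among the 10 genes the other counts were 0 with and without the block. Over all genes it did move them, to 0.119% between cultures in D2.OR, 0.309% in D2A1 and 0% for the interaction. Between the lines in 2D, DESeq2 called 7 genes (52.3% of all), its size factors 7 (49.9%), no filter 7 (26.2%), and limma 4 on log2(TPM + 1) (47.2%) and 5 on log2(TPM + 0.1) (49.2%). In 3D, DESeq2 called 6 (56.1%) and the library total alone 3 (55.4%). DESeq2 called 2 genes between 3D and 2D in D2.OR (6.98%), 4 in D2A1 (20.9%) and 1 in the interaction (5.66%). For 3D against 2D in D2A1, limma on log2(TPM + 0.1) called 2 (6.75%) and no filter on low counts called 3 (3.75%). In D2.OR the fit to the 6 libraries compared called 1 (Atf3, -0.89, adjusted p = 0.0481, edgeR), with 5.16% of all genes. With a replicate or library left out, the count ran from 2 to 9 for the lines in 2D (24.9% to 53.8% of all genes over these fits), 1 to 6 in 3D (31% to 59.5%), 0 to 4 between cultures in D2.OR (0% to 8.38%) and in D2A1 (0% to 36.3%), 0 to 3 for the interaction (0% to 17.8%) and 1 to 4 for batch 1 (7.61% to 20.6%). The 9 genes in 2D passed without replicate 1 (53.8%) and the 6 in 3D without the third D2.OR library in 3D (44.2%). The causes were not tested.

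Of 580 values under the other alternatives, 532 kept direction and side of the threshold, 18 newly passed, 10 no longer passed and 20 changed sign. Of 990 with a replicate or library left out these numbers were 850, 39, 45 and 56. The sign changes were all in values that had not passed. Atf3 between lines in 2D was 0.09 with no replicate block and 0.12 in the 6 libraries compared. Maff between cultures in D2A1 was -0.01 (DESeq2 and its size factors), -0.09 and -0.10 (limma) and 0.00 (no filter), and in batch 1 -0.01 (DESeq2 and its size factors) and 0.00 (no filter). Fosb between lines in 3D was -0.09 and -0.18 (limma), -0.10 (library total alone) and -0.11 (6 libraries). Jund in the interaction was 0.07 under limma with either pseudocount, Atf3 between batches 3 and 2 was 0.01 and 0.02 (limma), and with no filter Fosl1 between cultures in D2.OR was -0.01 and Jund between batches 3 and 2 was 0.00. With a replicate or library left out, ranges that crossed 0 were, for Atf3, -0.64 to 0.83 between lines in 2D, -0.02 to 0.72 in 3D, -0.32 to 1.02 in the interaction and -0.33 to 0.57 between batches 3 and 2. They were -1.09 to 0.32 for Fos in the interaction, -0.69 to 0.39 for Fosb between lines in 3D, and, between cultures in D2.OR, -0.19 to 0.15 for Fosl1, -0.37 to 0.05 for Fosl2 and -0.21 to 0.27 for Maff. For Maff they were also -0.16 to 0.20 between cultures in D2A1, -0.40 to 0.29 in the interaction, -0.11 to 0.15 in batch 1 and -0.13 to 0.11 between batches 3 and 2. Between those batches Fosl2 ran from -0.18 to 0.06, Junb from -0.04 to 0.32 and Jund from -0.10 to 0.14, and Jund in the interaction from -0.25 to 0.10. The lowest expected count was 189, and the effect of depth on the values was not tested.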
